A study of Homo sapiens with 18 samples.

Results

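The 28 genes described here encode the machinery that makes cholesterol and fatty acids, together with the transcription factors that switch it on. They were taken by symbol from a table of 37550 gene rows, and all 28 were found. The group holds 3 regulators (SREBF1, SREBF2, INSIG1), 7 enzymes of the mevalonate stage from acetoacetyl-CoA to farnesyl diphosphate, 11 enzymes from squalene formation to cholesterol, the sterol carrier STARD4, and 6 enzymes of fatty acid synthesis and desaturation. RNA was measured in bulk in 18 libraries of the H1 human embryonic stem cell line, which carried no engineered allele, in 9 groups of 2 biological replicates.

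The starting group, hPSC, was undifferentiated H1 cells at day 0 in mTeSR Plus medium. All other cells spent day 1 in the chemically defined medium CDM2 with the TGF-beta receptor inhibitor A8301 (1 µM), the MEK inhibitor trametinib (250 nM), the porcupine inhibitor C59 (1 µM) and the BMP receptor inhibitor LDN193189 (100 nM). Anterior neural ectoderm (aNE) was then collected at day 2 after A8301, LDN193189 and C59 (1 µM), and posterior neural ectoderm (pNE) at day 2 after A8301, LDN193189, the retinoid TTNPB (50 nM), FGF2 (20 ng/mL) and the tankyrase inhibitor XAV939 (1 µM). Both day-2 groups also received the ROCK inhibitor thiazovivin. Each was carried to day 4 in forebrain medium (aNE_T, pNE_T), midbrain medium (aNE_M, pNE_M) or hindbrain medium (aNE_H, pNE_H). The forebrain medium opened with CDM2, XAV939 (1 µM), LDN193189 (100 nM) and FGF2 (20 ng/mL), and the later contents of the 3 day-4 media were not used here. Cells were plated at 37500 per cm2 for collection at day 2, and for day 4 at 75000 per cm2 for aNE and 150000 per cm2 for pNE. At day 4 the origin of the cells and the plating density therefore cannot be told apart. Between day 2 and day 4 the plating density changed along with day and medium, so these cannot be told apart either. All libraries come from 1 cell line, so the spread between replicates says nothing about other lines.

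Cholesterol is built from acetyl-CoA through mevalonate, isoprenoid diphosphates, squalene and lanosterol. Fatty acids start from the same acetyl-CoA, which ACLY cuts from citrate. When the endoplasmic reticulum membrane holds little cholesterol, the SREBP proteins encoded by SREBF1 and SREBF2 are carried to the Golgi, cleaved, and sent to the nucleus, where they activate most of these enzyme genes. INSIG1 holds the SREBP complex in the endoplasmic reticulum when sterol is plentiful and is itself an SREBP target. Neural progenitors make much of their own cholesterol, which also modifies Hedgehog proteins, and inherited defects of DHCR7 disturb forebrain development.

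Values are TPM, the share of a library's transcripts scaled by transcript length. A gene was tested if it reached 1 TPM in at least 2 libraries, which 17033 genes did, all 28 members among them. Changes are differences of log2(TPM + 1) with a standard error (SE) from limma, and p-values were adjusted over all tested genes. A gene past an adjusted p of 0.05 is said to have risen or fallen, and a gene that also changed at least 2-fold is said to be called. In bulk RNA, fewer cells of a type and less RNA per cell cannot be told apart.

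Several facts of the libraries bear on every comparison. The 6 pluripotency markers summed to 4404 and 4410 TPM in hPSC and to between 170.1 and 694.6 TPM in the other 16 libraries. POU5F1, the core pluripotency factor, was at 2900 and 2878 TPM in hPSC and between 162.2 and 171.3 TPM at day 2. The 7 neural ectoderm markers summed to 341.1 and 345.2 TPM in hPSC. They reached 1043 and 1033 TPM in the aNE libraries and 607.7 and 720.4 TPM in those of pNE. The labelled neural identity was weaker for single markers in pNE, where PAX6 was at 1.338 and 2.544 TPM against 28.92 and 29.32 TPM in aNE, and SOX1 at 1.054 and 1.218 TPM against 7.73 and 6.664 TPM. Mitochondrially encoded transcripts took 0.96% and 1.23% of TPM in hPSC and between 1.53% and 3.74% elsewhere. The part of these differences in the results below was not tested.

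Every member was expressed in every library. The lowest value was 13.25 TPM, for the mevalonate kinase MVK in aNE_T, and the highest was 1027 TPM, for the fatty acid desaturase FADS2 in aNE_M. Summed over all 28 genes, the level was 4015 and 4137 TPM in hPSC. At day 2 it was 5580 and 5440 TPM for aNE and 5851 and 6231 TPM for pNE. At day 4 the sum was 3667 and 3704 TPM in aNE_T, the only group below hPSC, and between 5478 and 6616 TPM in the 10 other day-4 libraries. By gene, the lowest of the 9 group means fell in aNE_T for 16 members (57.1%, against 9.56% of tested genes), in hPSC for 11 (39.3%, against 28.5%) and in aNE_H for 1. The plot of member levels by library shows both low points as blue columns.

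**Figure D1:**
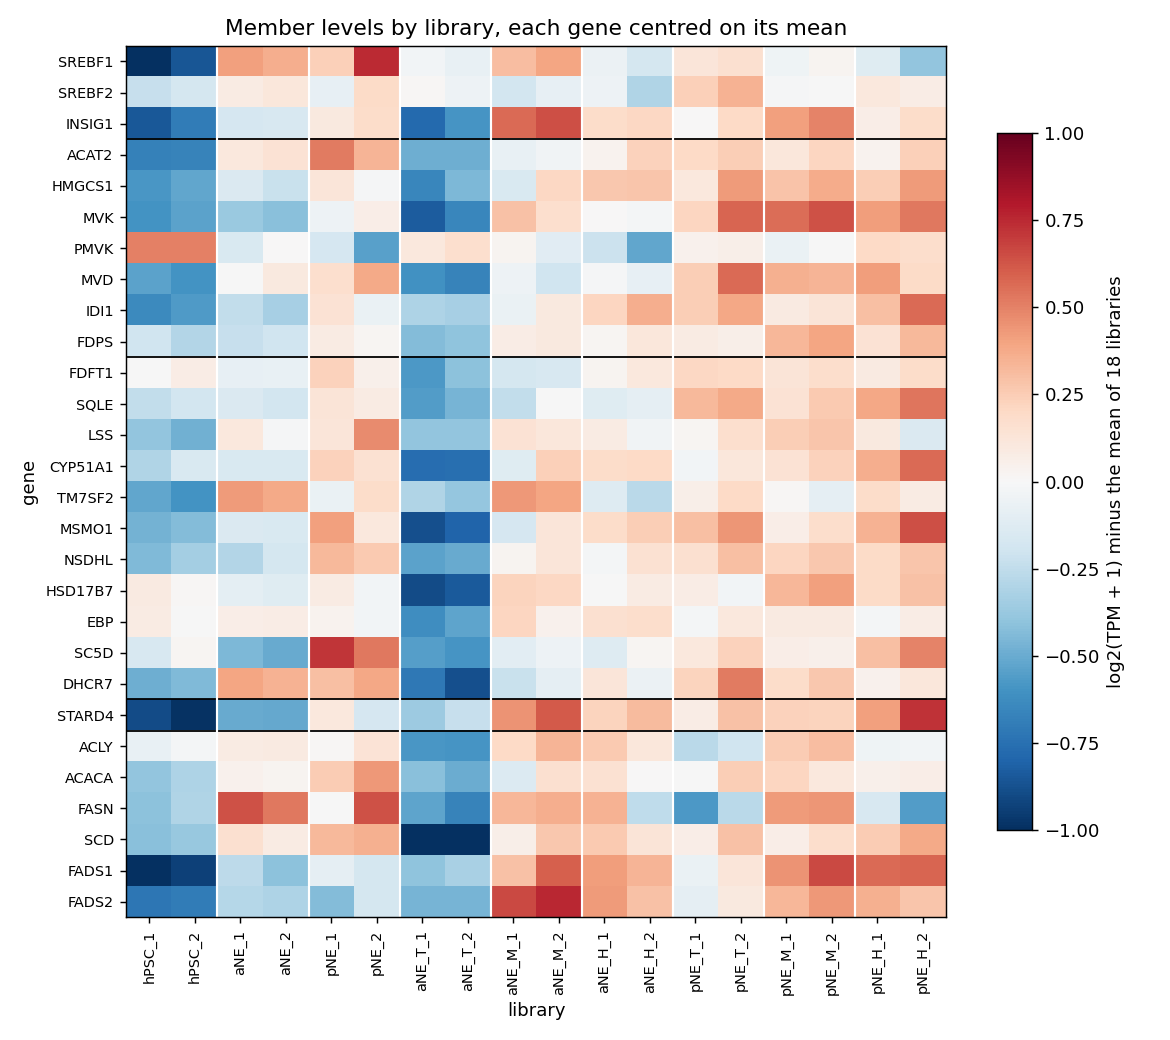
Level of each of the 28 members in each of the 18 libraries, as log2(TPM + 1) minus the gene's mean over the libraries, with genes ordered by role. The hPSC columns and the aNE_T columns hold most of the low values; PMVK stands out with its highest level in hPSC.

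Promoter stretches are shown for SCD, MSMO1 and DHCR7, each called in the same direction in more than 1 comparison described below, and for SREBF2, which was never called, as the member that holds the exact sterol element searched. SREBF1 and FADS2 were also called in more than 1 comparison and are not printed. RefSeq promoter windows (GRCh38.p14), from 250 bases before to 50 bases after the start, were matched for 24 of the 28 members. The SREBP proteins are known to act with NF-Y, which binds the CCAAT box. The letters CCAAT were searched on both strands, and the sterol regulatory element core as TCACNCCAC. In the stretches below, which lie before the start and end where an annotated exon of the gene begins, capitals mark either motif, with ATTGG being CCAAT on the other strand.
SCD, chr10:100346983-100347123, plus strand: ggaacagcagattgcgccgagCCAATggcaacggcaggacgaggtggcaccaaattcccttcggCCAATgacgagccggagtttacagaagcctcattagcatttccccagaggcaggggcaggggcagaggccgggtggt
MSMO1, chr4:165327419-165327622, plus strand: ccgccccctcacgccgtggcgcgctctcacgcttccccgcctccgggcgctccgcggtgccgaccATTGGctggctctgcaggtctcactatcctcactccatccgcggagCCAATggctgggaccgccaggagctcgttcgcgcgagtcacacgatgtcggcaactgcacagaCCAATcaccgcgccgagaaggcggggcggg
DHCR7, chr11:71448436-71448643, minus strand: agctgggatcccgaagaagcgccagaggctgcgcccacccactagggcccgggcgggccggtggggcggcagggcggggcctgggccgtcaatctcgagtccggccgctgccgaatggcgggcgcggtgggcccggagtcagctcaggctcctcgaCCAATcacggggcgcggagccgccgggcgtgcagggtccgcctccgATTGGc
SREBF2, chr22:41832855-41833078, plus strand: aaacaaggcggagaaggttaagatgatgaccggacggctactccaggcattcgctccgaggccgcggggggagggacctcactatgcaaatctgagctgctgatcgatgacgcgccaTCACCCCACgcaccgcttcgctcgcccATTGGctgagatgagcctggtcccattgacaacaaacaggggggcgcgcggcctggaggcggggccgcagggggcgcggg
The DHCR7 stretch precedes a start inside the annotated gene span, and the window of a second RefSeq start of DHCR7 (chr11:71449044-71449293 before the start) holds 0 CCAAT boxes. The stretch of MSMO1 carries 3 CCAAT boxes, those of SCD and DHCR7 carry 2 each, and that of SREBF2 carries 1 beside the sterol element core. At least 1 CCAAT box was present in 20 of the 24 members (83.3%) and in 39.7% of all 27305 genes with a window. At least 2 were present in 14 members (58.3%) and in 12.9% of all genes. The exact sterol core was found in SREBF2 alone (4.17% of members, 1.39% of all genes), and with 1 mismatch allowed in 13 members (54.2%, against 28.2%). The GC box bound by Sp1, GGGCGG, was in 23 of 24 members, all but NSDHL (95.8%, against 48.3%), and the E-box CACGTG was in INSIG1, LSS and SC5D (12.5%, against 8.77%). These shares describe letters only.

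The first comparison is that of each day-2 population with the stem cells it came from. Most of the pathway was higher at day 2. In aNE, 16 members rose and 2 fell, where 22.6% of all tested genes rose and 18.9% fell, and the median member change was 0.34 on the log2 scale against 0.06 over all tested genes. In pNE, 23 rose and 1 fell, where 20.8% and 17.6% of tested genes did, and the medians were 0.66 and 0.05. Few changes reached 2-fold: 1 member was called higher in aNE (7.36% of tested genes were) and 3 in pNE (7.14%), and no member was called lower in either (6.19% and 5.74%). For 20 of the 28 members both hPSC libraries lay below all 4 day-2 libraries, an ordering that 28.3% of tested genes showed. Among the 12725 genes kept by a filter at 5 TPM the share was 31.5%. The 2 contrasts share the hPSC libraries, and the medium base changed from mTeSR Plus to CDM2 with the cell state, so the medium and the state cannot be told apart.

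Among the regulators, SREBF1 rose most. It encodes SREBP1, the form tied chiefly to fatty acid genes, and went from 48.08 and 53.68 TPM in hPSC to 130.7 and 126.6 TPM in aNE and to 115.8 and 165.1 TPM in pNE. All 4 day-2 values lay above both hPSC values. The change was 1.32 (SE 0.133, adjusted p = 5.25e-06) in aNE and 1.43 (SE 0.133, adjusted p = 2.8e-06) in pNE. SREBF2, whose product SREBP2 acts chiefly on cholesterol genes, moved much less, from 132 and 136.7 TPM to 163.6 and 167.7 TPM in aNE and to 146.3 and 176.6 TPM in pNE. INSIG1 rose from 36.87 and 41.04 TPM to 59.92 and 60.24 TPM in aNE and to 72.07 and 76.79 TPM in pNE.

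In the mevalonate stage, the sum of the 7 enzymes was 943.8 ± 7.21 TPM (SD, n = 2) before differentiation, and it reached 1198 ± 5.66 TPM in aNE and 1435 ± 62.2 TPM in pNE. ACAT2, which joins 2 acetyl-CoA molecules at the head of the route, went from 172.4 and 174 TPM to 298.2 and 305.5 TPM in aNE and to 397.6 and 350.2 TPM in pNE. Its rise in pNE was 1.10 (SE 0.0822, adjusted p = 3.65e-07), and all 3 groups were separate. HMGCS1, which makes HMG-CoA, MVD, which decarboxylates mevalonate diphosphate, and IDI1, which isomerises isopentenyl diphosphate, rose in both populations, while MVK and FDPS, the farnesyl diphosphate synthase, rose in pNE and did not pass the test in aNE. PMVK, the phosphomevalonate kinase, went the other way. It was at 54.43 and 54.25 TPM in hPSC. Day-2 values were 34.19 and 38.08 TPM for aNE and 33.78 and 25.73 TPM for pNE, and its change was -0.58 in aNE (adjusted p = 0.00206) and -0.86 in pNE (adjusted p = 0.000108). No other member had its highest group mean in hPSC.

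The sterol stage of the route was more uneven in aNE. Of its 11 enzymes, LSS (the lanosterol-forming cyclase), TM7SF2 (a sterol C14 reductase) and DHCR7 (the 7-dehydrocholesterol reductase) rose in aNE, SC5D (the sterol C5 desaturase) fell, and the other 7 did not pass the test. In pNE, 8 of the 11 rose, and FDFT1 (squalene synthase), HSD17B7 and EBP did not pass. DHCR7 went from 115.9 and 119.8 TPM in hPSC to 213.9 and 206.9 TPM in aNE and to 200.3 and 213.4 TPM in pNE, so both day-2 populations sat at about the same level. TM7SF2 was at 63.94 and 60.41 TPM in hPSC, and was higher in aNE (123.8 and 119.6 TPM) than in pNE (87.93 and 104.4 TPM). The carrier STARD4, which moves cholesterol between membranes, was at 29.28 and 27.36 TPM in hPSC. It stood at 38.64 and 38.34 TPM for aNE and at 59.35 and 48.96 TPM for pNE.

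The fatty acid enzymes summed to 1731 ± 66.5 TPM in the stem cells, and to 2584 ± 89.8 TPM in aNE and to 2632 ± 306 TPM in pNE. In both populations 5 of the 6 rose, and ACLY did not pass the test. FADS1, the delta-5 desaturase of polyunsaturated fatty acids, went from 83.77 and 114.1 TPM to 181.9 and 164.7 TPM in aNE and to 206 and 193.9 TPM in pNE, and was called in pNE at 1.02 (SE 0.134, adjusted p = 5.68e-05). Without hPSC replicate 1 that change was 0.80, below 2-fold. FASN, the fatty acid synthase, was at 404 and 434.5 TPM in hPSC and 835.5 and 773.7 TPM in aNE, while the pNE replicates stood far apart at 535.3 and 834.7 TPM.

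**Figure D2:**
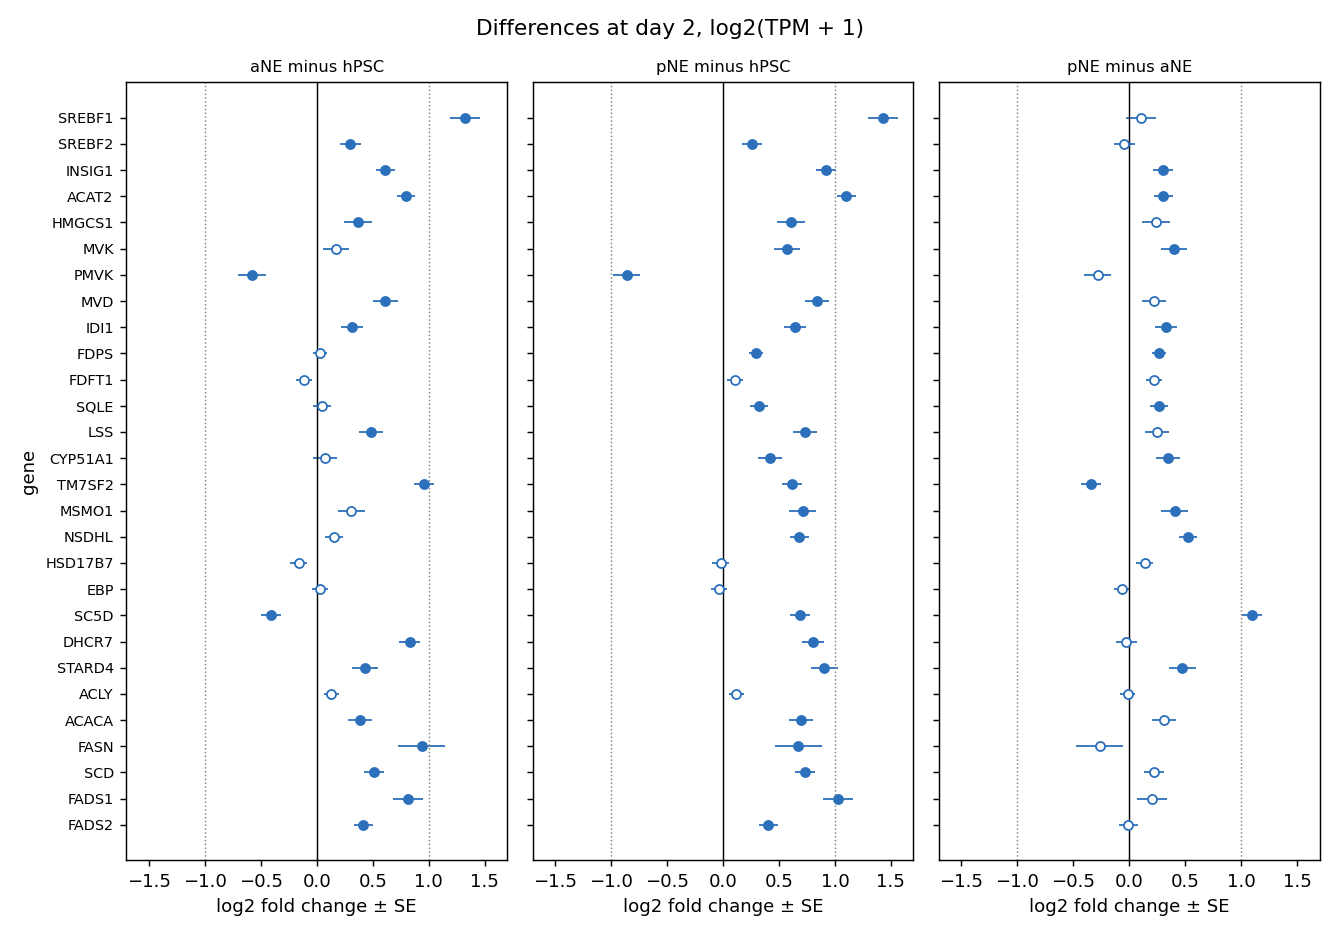
Difference of each member for aNE against hPSC, pNE against hPSC and pNE against aNE, as the difference of mean log2(TPM + 1) over 2 libraries a group with its SE; filled points pass an adjusted p of 0.05 and dotted lines mark 2-fold. Most points lie to the right of 0, PMVK lies to the left against hPSC in both populations, and SC5D lies on opposite sides and past 2-fold between them.

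Comparing the 2 day-2 populations directly asks whether the anterior and posterior inductions set the pathway differently. The posterior cells held more of it, mainly in the cholesterol genes. In pNE, 11 members were higher and 1 was lower than in aNE, where 7.47% and 6.16% of tested genes were, and the median member difference was 0.23 against -0.01. The 11 were INSIG1, ACAT2, MVK, IDI1, FDPS, SQLE, CYP51A1, MSMO1, NSDHL, SC5D and STARD4, of which none is a fatty acid enzyme, and the lower gene was TM7SF2. This count rests on the pooled spread and on single libraries: it was 12 in all here, 2 when aNE and pNE were fitted alone, 2 without either aNE replicate and 4 without pNE replicate 1. Both pNE libraries lay above both aNE libraries for 19 members, as for 25.0% of tested genes and 27.6% of genes kept at 5 TPM.

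SC5D was the member called at 2-fold (2.37% of tested genes were called higher, and 1.48% lower). From 65.24 and 74.02 TPM in hPSC it went to 53.04 and 51.23 TPM in the anterior cells and to 120 and 105.4 TPM in the posterior ones, so the populations left the stem cell level in opposite directions. The difference was 1.09 (SE 0.0913, adjusted p = 3.23e-06). Its known partner in electron transfer, CYB5A, the cytochrome b5 that feeds sterol and acyl desaturases, was at 217.6 and 197.8 TPM in hPSC. In aNE it was at 33.17 and 39.9 TPM, against 192.4 and 150 TPM for pNE, a difference between the day-2 populations of 2.19 (SE 0.119, adjusted p = 6.56e-08).

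The day-4 groups ask what each population did in 3 regional media. Here aNE in forebrain medium stood apart at the low end. Both aNE_T libraries lay below all 10 other day-4 libraries for 24 of the 28 members (85.7%), an ordering that 6.50% of tested genes showed. Among genes kept at 5 TPM the share was 8.1%. The exceptions were SREBF1, SREBF2, PMVK and FASN. The aNE_T mean was the lowest of the 6 day-4 groups for 25 members, which was so for 17.6% of tested genes. Each comparison in the next paragraphs that contains aNE_T uses the same 2 libraries, so the comparisons do not stand independently.

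**Figure D3:**
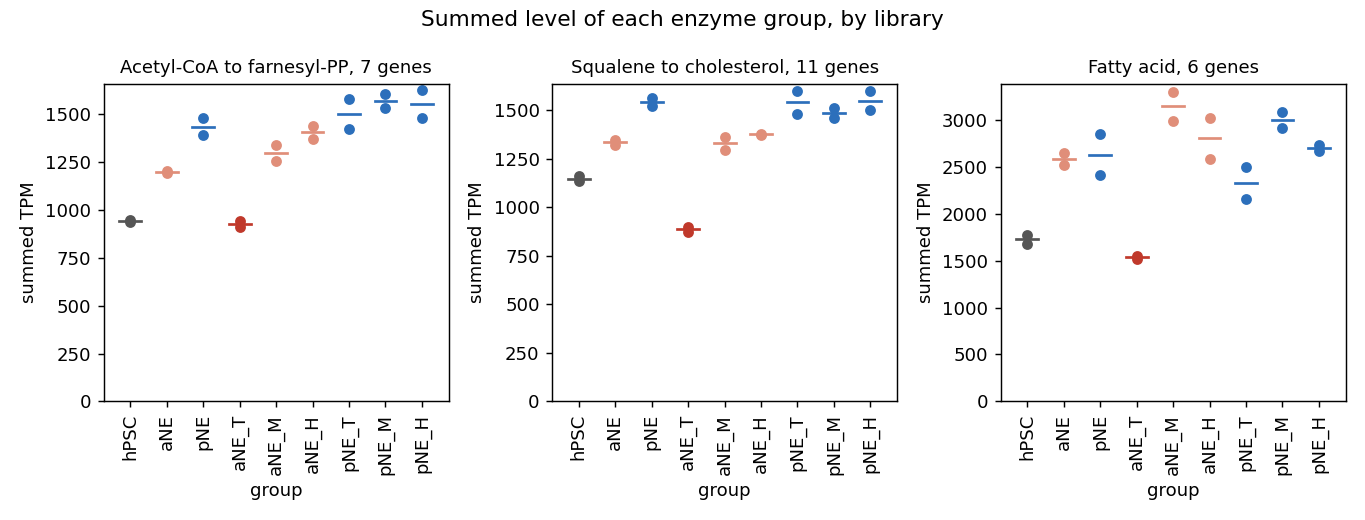
Summed TPM of the mevalonate, squalene-to-cholesterol and fatty acid enzymes in each of the 9 groups; points are the 2 libraries and lines their mean. The aNE_T lines are the lowest at day 4 in all 3 panels, and at 888.6 TPM the squalene-to-cholesterol sum is below that of hPSC, 1148 TPM.

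Against day-2 aNE cells, aNE_T cells had 21 members lower and none higher, where 14.6% of tested genes fell and 15.7% rose. The median member change was -0.44, and the median over all tested genes was 0.00. The falls spanned the roles: 5 of 7 mevalonate enzymes, 10 of 11 squalene-to-cholesterol enzymes, and 4 of 6 fatty acid enzymes fell, as did SREBF1 and INSIG1. The 7 that did not pass the test were SREBF2, PMVK, IDI1, SC5D, STARD4, FADS1 and FADS2. At 2-fold, 3 members were called lower and none higher, where 4.42% and 4.61% of tested genes were.

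The called members were FASN, DHCR7 and SCD. SCD, the stearoyl-CoA desaturase that makes monounsaturated fatty acids, went from 765.4 and 725.7 TPM in aNE to 332.3 and 338.1 TPM in aNE_T, below the 514.5 and 528.9 TPM of hPSC. The change was -1.15 (SE 0.0871, adjusted p = 6.08e-07). DHCR7 went from 213.9 and 206.9 TPM to 98.97 and 88.21 TPM, a change of -1.16 (SE 0.0968, adjusted p = 1.45e-06), also below its hPSC values. FASN went from 835.5 and 773.7 TPM to 371.3 and 337.4 TPM, a change of -1.18 (SE 0.209, adjusted p = 0.000815). In none of the 3 did the aNE and aNE_T libraries overlap.

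The posterior cells responded differently to the same medium. From pNE to pNE_T, 4 members rose (MVK, PMVK, SQLE, FADS2) and 3 fell (SC5D, ACLY, FASN), where 15.5% and 18.1% of tested genes did, and no member was called by limma (4.68% of tested genes were called higher and 5.56% lower; 11 members had an unadjusted p under 0.05). An interaction term compared the responses: the change from pNE to pNE_T minus the change from aNE to aNE_T. It passed for 15 members, all in the direction of a higher level in the posterior cells, where 5.35% of tested genes passed that way and 7.00% the other. The median member interaction was 0.44 against -0.03. The 15 were INSIG1, 5 enzymes making mevalonate products or squalene (ACAT2, HMGCS1, MVK, MVD, FDFT1), 6 later sterol enzymes (SQLE, TM7SF2, MSMO1, HSD17B7, EBP, DHCR7) and the fatty acid genes ACLY, SCD and FADS2. DHCR7 alone reached 2-fold, at 1.19 (SE 0.137, adjusted p = 5.73e-05), where 3.17% of tested genes were called in that direction and 3.97% in the other. DHCR7 stayed at 190.1 and 233.1 TPM in pNE_T, against 200.3 and 213.4 TPM in pNE. SCD followed at 0.99 (SE 0.123, adjusted p = 0.00011), just under 2-fold.

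Set side by side at day 4, pNE_T exceeded aNE_T for 24 members and none was lower, where 9.05% of tested genes were higher and 12.1% lower. The median member difference was 0.67, and over all tested genes it was -0.05. Both pNE_T libraries lay above both aNE_T libraries for 26 members, all but PMVK and FASN, as for 24.7% of tested genes. Among genes kept at 5 TPM the share was 27.2%. At 2-fold, 5 were called higher (3.79% of tested genes) and none lower (3.97%). SCD was at 719.5 and 843.1 TPM in pNE_T, a difference of 1.21 (SE 0.0871, adjusted p = 3.25e-07). MSMO1, the sterol C4-methyl oxidase, was at 70.57 and 74.76 TPM in aNE_T and 161.5 and 178.1 TPM in pNE_T, also 1.21 (SE 0.12, adjusted p = 7e-06). DHCR7 differed by 1.16 (SE 0.0968, adjusted p = 1.32e-06).

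The other called members belong to the mevalonate stage. MVK was at 13.25 and 15.19 TPM in aNE_T and 28.46 and 36.94 TPM in pNE_T, a difference of 1.14 (SE 0.114, adjusted p = 7.52e-06). MVD was at 100.6 and 96.25 TPM against 182.2 and 228.7 TPM, a difference of 1.05 (SE 0.109, adjusted p = 1.11e-05). Without pNE_T replicate 2, which held the higher value for both, the differences were 0.96 and 0.88 and neither reached 2-fold, leaving 3 called members. Of the regulators, SREBF1 was at 96.24 and 93.05 TPM in aNE_T and 106.7 and 110 TPM in pNE_T (adjusted p = 0.361), and SREBF2 at 156.1 and 149.4 TPM and 182.3 and 196.7 TPM (adjusted p = 0.0292), while INSIG1 was at 38.82 and 44.41 TPM and 67.66 and 77.44 TPM (adjusted p = 2.08e-05).

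**Figure D4:**
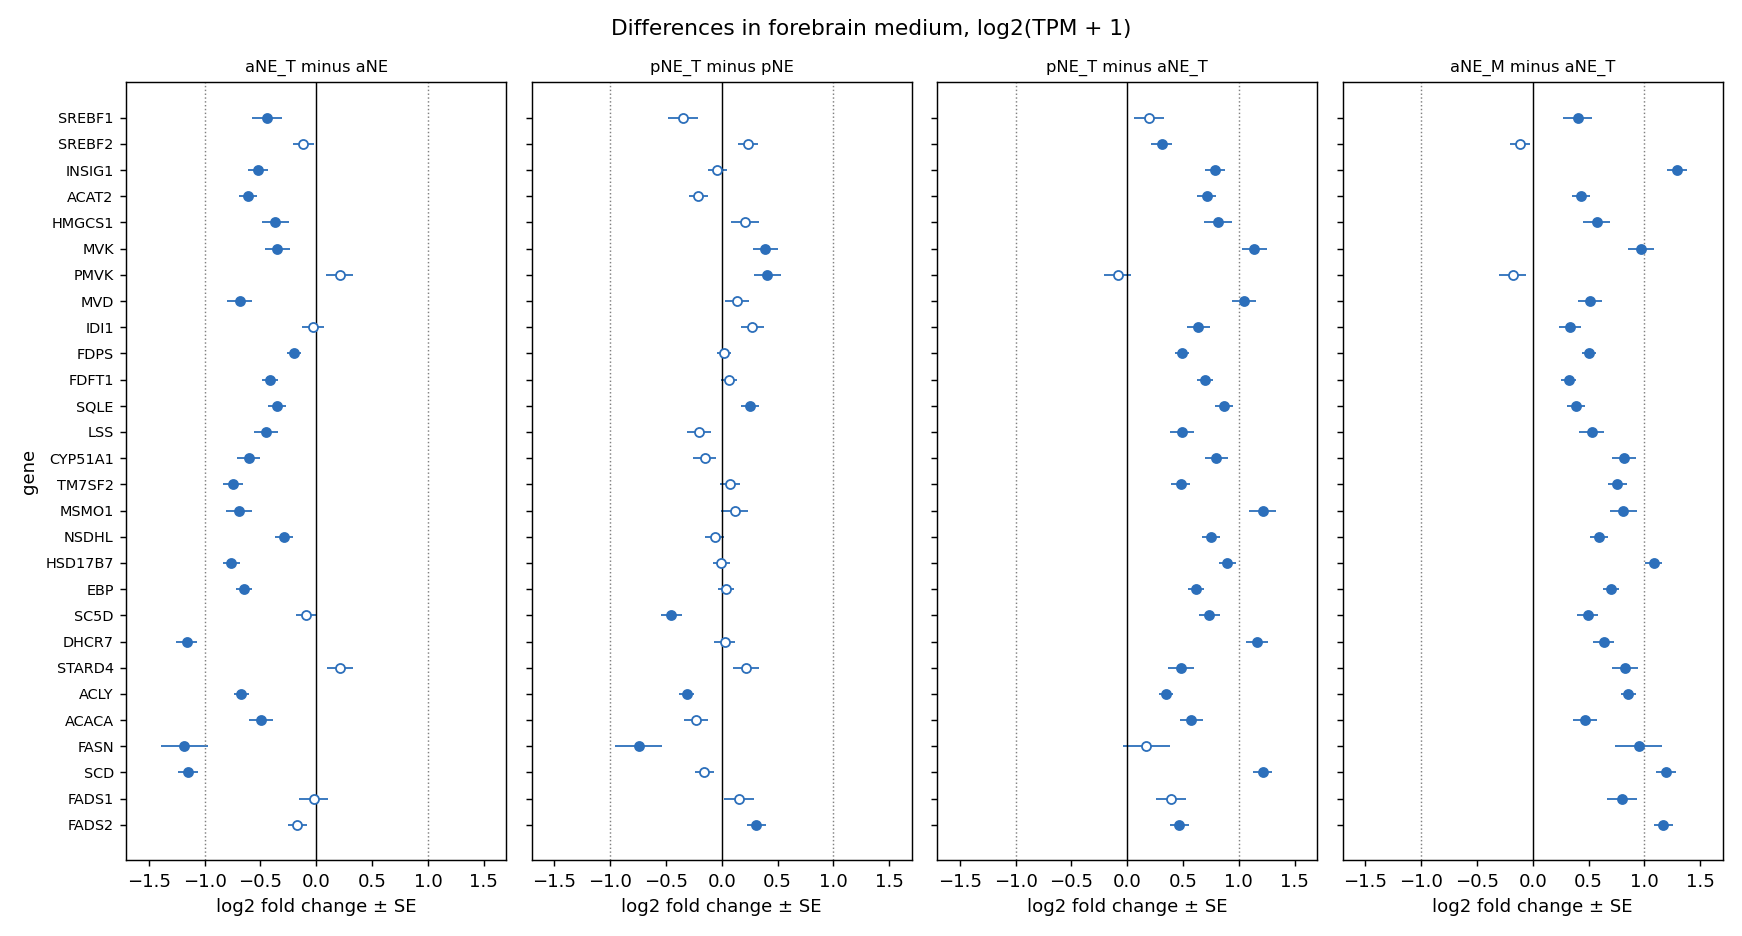
Difference of each member for aNE_T against aNE, pNE_T against pNE, pNE_T against aNE_T and aNE_M against aNE_T, as the difference of mean log2(TPM + 1) over 2 libraries a group with its SE; filled points pass an adjusted p of 0.05 and dotted lines mark 2-fold. The aNE_T minus aNE points lie left of 0 for 26 members, with SCD, DHCR7 and FASN past 2-fold, while the pNE_T minus pNE points are scattered around 0.

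The low level was also not shared by aNE in the other media. Against aNE_T, aNE_M had 26 members higher and none lower (15.1% and 17.4% of tested genes), and aNE_H had 24 higher and 1, PMVK, lower (11.0% and 16.2%). The median member difference was 0.62 in both, and those over all tested genes were -0.04 and -0.07. These 3 groups carry the same plating label, 75000 cells per cm2. At 2-fold, aNE_M had 4 members called higher (3.50% of tested genes, with 6.55% lower): INSIG1, SCD, FADS2 and HSD17B7. INSIG1 was at 100.2 and 106 TPM in aNE_M, its highest level in the series, a difference from aNE_T of 1.29 (SE 0.0878, adjusted p = 1.37e-07). HSD17B7, the sterol C3 keto-reductase, was at 34.66 and 34.24 TPM in aNE_M and 15.42 and 16.08 TPM in aNE_T. In aNE_H, SCD (823.4 and 748.7 TPM) and MSMO1 (148.8 and 155.4 TPM) were called higher, by 1.23 and 1.06 (adjusted p = 5.82e-07 and 3.12e-05), where 1.78% of tested genes were called higher and 4.83% lower.

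**Figure D5:**
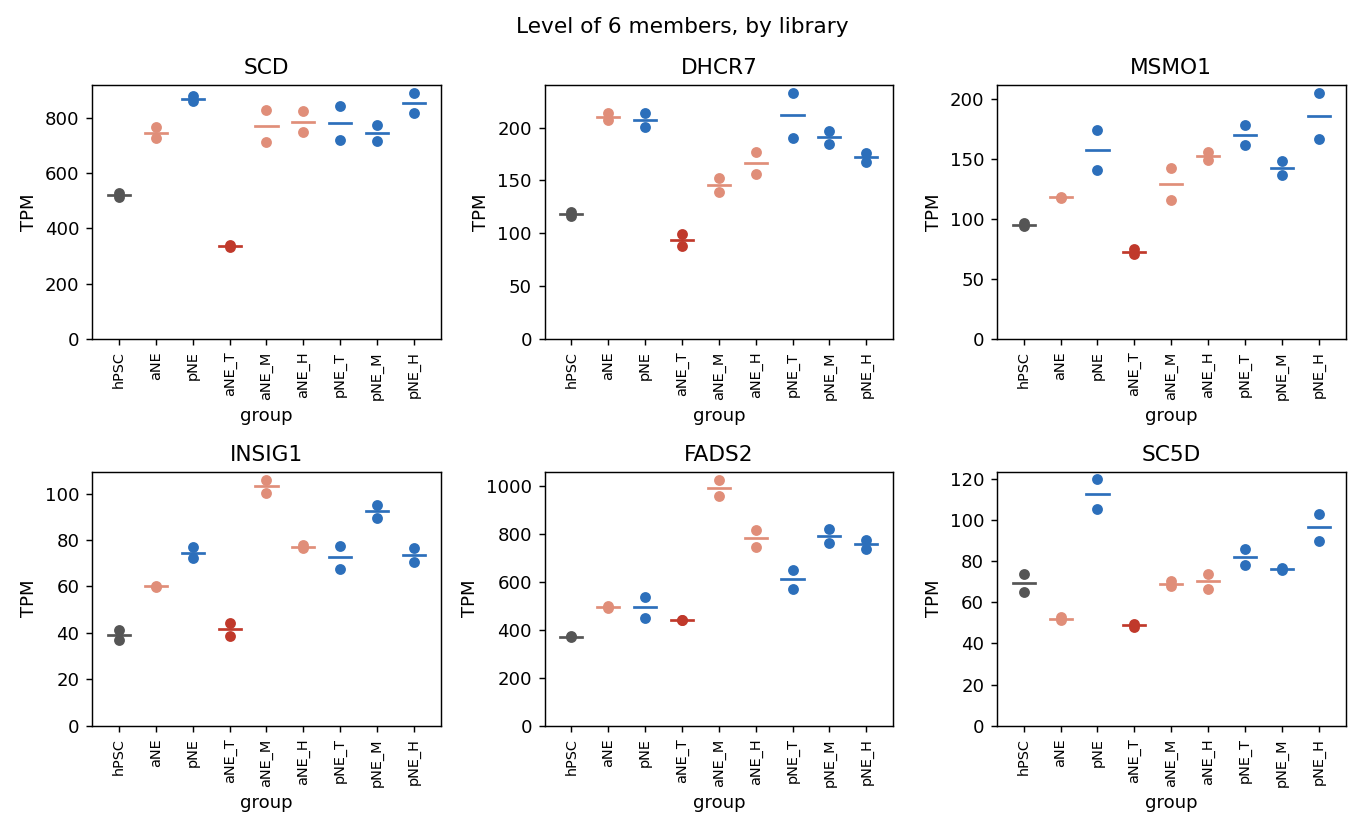
TPM of SCD, DHCR7, MSMO1, INSIG1, FADS2 and SC5D in each library, by group; points are single libraries and lines the mean of 2. The aNE_T points are the lowest of the day-4 points in all 6 panels; SC5D peaks in pNE and FADS2 in aNE_M.

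In midbrain and hindbrain media the pathway as a whole stayed near the day-2 level, but its parts shifted. From aNE to aNE_M, 11 members rose and 1 (DHCR7) fell, where 16.7% and 18.8% of tested genes did, and from aNE to aNE_H 12 rose and 4 fell (13.8% and 17.5%). From pNE, 7 rose and 3 fell in midbrain medium (14.7% and 20.7%) and 9 rose and 5 fell in hindbrain medium (14.6% and 22.6%). At 2-fold, aNE_M held 2 members above aNE, STARD4 and FADS2 (4.34% of tested genes were called higher and 7.63% lower). No member was called by limma from aNE to aNE_H (3.24% and 6.83% of tested genes), pNE to pNE_M (4.87% and 7.85%) or pNE to pNE_H (4.47% and 7.80%), with 18, 14 and 18 members at an unadjusted p under 0.05. STARD4 went from 38.64 and 38.34 TPM to 75.85 and 84.92 TPM, a change of 1.04 (SE 0.118, adjusted p = 1.54e-05), and FADS2, the delta-6 desaturase, from 499.7 and 491.4 TPM to 958.8 and 1027 TPM, a change of 1.00 (SE 0.0851, adjusted p = 1.07e-06). Both changes sit at the 2-fold line: without aNE_M replicate 2 no member was called, and without aNE replicate 2 there was 1.

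Both polyunsaturated fatty acid desaturases were above their day-2 levels in these media, though the groups ranked differently for each. FADS1 was at 267.7 and 331.2 TPM in aNE_M, 292.8 and 277.7 TPM in aNE_H, 299.7 and 345.6 TPM in pNE_M, and 325 and 328 TPM in pNE_H, all above the 4 day-2 values. FADS2 was between 738.7 and 1027 TPM in those 8 libraries and between 450.6 and 538.8 TPM at day 2. In the forebrain groups FADS1 was at 165.5 and 174.9 TPM in aNE_T and 208.5 and 238.6 TPM in pNE_T. The 2 genes lie next to each other with overlapping exons on opposite strands, and their reads cannot be told apart where the counting did not use strand.

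Anterior and posterior cells differed less in these 2 media than in forebrain medium, with the median member still slightly higher in the posterior cells. The median member difference was 0.13 in midbrain medium, against -0.04 over all tested genes. In hindbrain medium it was 0.15, against -0.04. In midbrain medium 6 members were higher in pNE_M and 2, TM7SF2 and FADS2, lower (7.06% and 9.58% of tested genes). In hindbrain medium 6 were higher in pNE_H and 1, ACLY, lower (9.15% and 12.7%). The summed fatty acid enzymes overlapped between origins in both media. They were at 2993 and 3302 TPM in aNE_M and 2913 and 3083 TPM in pNE_M. In hindbrain medium they were at 3024 and 2591 TPM in aNE_H and 2739 and 2668 TPM in pNE_H. No member was called by limma in midbrain medium (3.19% of tested genes were higher and 2.55% lower) or in hindbrain medium (3.92% and 2.91%), with 12 and 13 members at an unadjusted p under 0.05. MVK, MVD and SQLE, the squalene epoxidase, were higher in the posterior cells in both. MVK was at 30.04 and 27.57 TPM in aNE_M and 36.36 and 38.48 TPM in pNE_M, and at 24.45 and 24.1 TPM in aNE_H and 32.97 and 35.68 TPM in pNE_H. The interaction with midbrain medium passed for INSIG1, SC5D and STARD4, each lower in the posterior response (8.27% of tested genes passed that way and 5.67% the other), and the largest was SC5D at -0.96 (SE 0.129, adjusted p = 0.00022). That with hindbrain medium passed for PMVK and TM7SF2 in the higher direction (6.79%) and SC5D in the lower (9.36%). Neither interaction held a called member by limma (3.33% and 3.69% of tested genes in midbrain medium, 3.91% and 3.92% in hindbrain medium), with 7 and 9 members at an unadjusted p under 0.05.

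Other genes of lipid metabolism were counted from lists. The 12 genes of the other isoprenoid branches had 4 past the adjusted p alone from aNE to aNE_T, all lower, where 14.6% of tested genes fell and 15.7% rose, with a median of -0.19, and none was called by limma (5 at an unadjusted p under 0.05). Their mean sum was lower in forebrain medium for both origins. It was 375.5 TPM in aNE and 320.2 TPM in aNE_T, and 385.7 TPM in pNE and 321 TPM in pNE_T. The largest drop in the list was that of RABGGTB, with means of 73.09 TPM in aNE and 45.74 TPM in aNE_T. In pNE and pNE_T its means were 87.37 and 46.33 TPM. Not all genes of the list were lower: GGPS1 had means of 28.32 and 30.54 TPM in aNE and aNE_T, and 27.77 and 31.88 TPM in pNE and pNE_T. Of 9 further sterol enzymes and electron donors, 4 fell from aNE to aNE_T and none rose (14.6% and 15.7% of tested genes), with a median of -0.26, and in pNE_T against aNE_T 5 were higher and none lower (9.05% and 12.1% of tested genes), with a median of 0.38. CYB5A was called there, at 20.6 and 20.62 TPM in aNE_T and 63.9 and 58.63 TPM in pNE_T (1.53, SE 0.119, adjusted p = 7.23e-07).

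Among 22 further fatty acid enzymes, SCD5 ran against its relative SCD. SCD5, the second human stearoyl-CoA desaturase, was at 3.489 and 4.546 TPM in aNE and 55.38 and 56.02 TPM in aNE_T, a rise of 3.51 (SE 0.174, adjusted p = 1.2e-08). In pNE_T it was at 8.354 and 10.15 TPM, lower than in aNE_T by a difference of -2.47 (SE 0.174, adjusted p = 2.66e-07). SCD5 made up 14.3% and 14.2% of the summed TPM of both desaturases in aNE_T and at most 3.28% in each of the other 16 libraries. No other gene of that list was called from aNE to aNE_T. In pNE_T against aNE_T, 2 of the 22 were called higher and 1, SCD5, lower (3.79% and 3.97% of tested genes); the higher ones were the elongation genes ELOVL6 (33.88 and 53.3 against 87.18 and 86.54 TPM) and HSD17B12 (41.75 and 39.27 against 84.17 and 90.86 TPM).

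Uptake and efflux genes were mixed. Of 15 genes of cholesterol uptake and trafficking, 8 fell and 2 rose from aNE to aNE_T, where 14.6% and 15.7% of tested genes did. SCARB1, the HDL receptor, was at 11.08 and 16.29 TPM in aNE, 8.773 and 6.847 TPM in aNE_T, 25.83 and 40.45 TPM in pNE_T, and 145.4 and 141.9 TPM in aNE_M. VLDLR, a lipoprotein receptor that also transmits the Reelin signal, was at 37.63 and 38.89 TPM in aNE_T and 110.1 and 114.6 TPM in pNE_T, a difference of 1.53 (SE 0.16, adjusted p = 1.15e-05). ABCA1, the cholesterol exporter and a target of the sterol-sensing LXR receptors, was at 4.448 and 4.696 TPM in hPSC. Day-2 levels were 34.18 and 32.07 TPM for aNE and 33.99 and 37.73 TPM for pNE, rises of 2.61 and 2.72 (adjusted p = 1.96e-08 and 1.28e-08). It was at 43.85 and 40.92 TPM in aNE_T and 32.02 and 32.29 TPM in pNE_T. The midbrain and hindbrain groups lay lower, between 7.652 and 25.3 TPM. The list of 10 LXR and efflux genes that holds ABCA1 was mixed at day 2. It summed to 150.2 and 142.1 TPM in hPSC, 158.5 and 163.3 TPM in aNE, and 159.5 and 176.2 TPM in pNE. MYLIP, of the same list, went from 18.85 and 17.89 TPM in hPSC to 9.891 and 8.443 TPM in aNE. In pNE it was at 10.44 and 9.994 TPM. CYP46A1, the brain cholesterol 24-hydroxylase, was at 9.44 and 10.43 TPM in aNE_T, its highest level, and 2.696 and 3.036 TPM in pNE_T. Of 17 fatty acid oxidation genes, 9 fell and 2 rose in aNE against hPSC (18.9% and 22.6% of tested genes), and 7 fell and 1 rose in pNE (17.6% and 20.8%). At 2-fold, 1 was called lower in aNE (CPT1A) and 2 in pNE (CPT1A and ACADS), where 6.19% and 5.74% of all tested genes were. CPT1A, which admits fatty acids to mitochondria, was called in both, from 3.155 and 4.271 TPM in hPSC to 0.2505 and 0.5433 TPM in aNE and to 0.2639 and 0.2279 TPM in pNE.

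Cell-type markers moved with the forebrain-medium result. The 7 neural ectoderm markers summed to 1587 and 1543 TPM in aNE_T, the highest of all groups, to 1123 and 1144 TPM in pNE_T, and to between 459.3 and 676.5 TPM in the midbrain and hindbrain groups. OTX2, which marks forebrain and midbrain, was at 71.04 and 62.73 TPM in aNE_T and 0.9877 and 0.634 TPM in pNE_T. SOX1, SOX2, SOX11 and CDH2 were also lower in pNE_T. PAX6 went the other way, at 17 and 19.74 TPM in aNE_T and 40.96 and 28.3 TPM in pNE_T. NES overlapped, at 633.2 and 597.1 TPM in aNE_T and 607.6 and 648.8 TPM in pNE_T. The 5 surface ectoderm markers, mostly KRT8 and KRT18, summed to 585.6 and 580.2 TPM in aNE_T and 1209 and 1329 TPM in pNE_T, with TP63 at or near 0 throughout. The 8 endoderm markers summed to 13.89 and 19.02 TPM in aNE_T and 49.11 and 52.43 TPM in pNE_T. AFP supplied 26.33 and 29.68 TPM of the pNE_T sums, and SOX17 was at 0.03824 and 0 TPM there. FOXA2 was at 4.358 and 6.008 TPM in pNE_T against 0.02027 and 0 TPM in aNE_T. GATA6 was at 4.223 and 4.474 TPM in pNE_T against 0.1933 and 0.09743 TPM in aNE_T. Of the other markers, GATA4 and TTR were higher in pNE_T, APOA1 was lower, and CXCR4 overlapped. In aNE_M the mesendoderm markers reached 98.63 and 117.2 TPM, led by MIXL1. The part of these cell mixtures in the differences between groups was not tested.

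Some members are less certain than others. FDPS has 8 named pseudogenes in the GENCODE 29 annotation, CYP51A1 has 3, HSD17B7 has 2, and SCD and FADS2 have 1 each, and reads of near-identical copies may have been split among them. ACAT2 shares exon sequence with TCP1 on the other strand, and MVK with MMAB. On the same strand, exons of TM7SF2 overlap those of VPS51 and exons of FADS2 those of FEN1. In GRCh38, SCD lies at chr10:100347124-100364834 on the plus strand, DHCR7 at chr11:71428193-71452868 on the minus strand, and MSMO1 at chr4:165327623-165343160 on the plus strand.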

How the data were processed

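RNA-seq of 18 libraries (9 groups of 2) was deposited by the authors as 1 table of TPM per gene. Per the submitters' processing notes the tools included bcl2fastq, FastQC, Trim Galore, kallisto and deepTools, with the build hg38; versions, the annotation and strand use are not given in the sources used here. TPM keeps no read depth, so depth is unknown and no counting interval is given. All value columns matched a sample title.

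TPM values were tested as log2(TPM + 1) with limma 3.58.1 in R 4.3.3, with 9 group means, a variance trend and 9 residual degrees of freedom, after keeping genes at 1 TPM or more in 2 libraries. The fit covered 18 pairwise contrasts and 3 interactions, with Benjamini-Hochberg adjustment over 17033 genes. A call needed an adjusted p under 0.05 and a 2-fold change. Counts past the adjusted p alone were added after seeing the data. With 2 libraries a group, an exact permutation test could not pass 0.05. The script was tested on simulated data.

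The members and lists were chosen with earlier results of these data known. Named genes were the called members, up to 6 a comparison by size, SREBF1, SREBF2 and INSIG1, and at most 3 called genes of each further list; some genes that the rule would name are not reported here. Genes named with values outside that rule (such as PMVK, TM7SF2 and the members spelled out by role) were chosen after their values were seen. Replicate numbers were checked for pairing, and alternatives covered the pseudocount, the filter, scaling, the fit and single libraries.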

Additional observations from a re-analysis of the deposited data

Results flagged for a closer look

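DHCR7, the 7-dehydrocholesterol reductase, responded differently to forebrain medium in the 2 populations. The interaction was 1.19 on the log2(TPM + 1) scale (limma SE 0.137, adjusted p = 5.73e-05): the gene went from 213.9 and 206.9 to 98.97 and 88.21 TPM in aNE, and from 200.3 and 213.4 to 190.1 and 233.1 TPM in pNE. Plating density differed with the origin of the cells at day 4, so density and origin cannot be told apart.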

How the results depend on the processing

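Each count of members was recomputed with other pseudocounts, filters, scalings and fits. Of 232 such values 226 stayed within 1.5 times the reported count. The exceptions were the forebrain interaction, with 2 called members under median-ratio scaling and 2 under quantile normalization (1 as reported), aNE against hPSC with 2 (1) and aNE_M against aNE with 1 (2), both under quantile normalization, and the members past the adjusted p alone in pNE against aNE (12), which were 2 with the compared groups fitted alone and 5 without a variance trend. The cause was not tested. Single genes just past 2-fold slipped under it: FADS1 in pNE against hPSC at 0.95 under median-ratio scaling, and FADS2 in aNE_M against aNE at 0.95 under quantile normalization.

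Leaving out each library in turn gave 0 to 2 called members in aNE_M against aNE, 3 to 5 in pNE_T against aNE_T, 2 to 4 in pNE against hPSC, 1 to 2 in aNE against hPSC and in the forebrain interaction, and 0 to 1 in the midbrain and hindbrain interactions and in pNE_T against pNE, pNE_H against pNE and pNE_M against pNE_T. Members past the adjusted p alone in pNE against aNE ran from 2 to 9, those in aNE_T against aNE from 15 to 18, and those in pNE_T against aNE_T from 21 to 23. A lone library left in a group is assumed to vary like the other groups. Quantile normalization moved the median of all genes by 0.106 in aNE_H against aNE_T, and the share of calls that were higher from 26.9% to 40.5% there, from 32.2% to 43.3% in aNE_H against aNE, from 36.4% to 46.9% in pNE_H against pNE and from 32.8% to 42.8% in pNE_H against pNE_T.

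Same-numbered libraries did not deviate together: over 36 pairs of groups the correlation of deviations ran from -0.0896 to 0.0762, and 4 of 9 groups stood closer to their own number. With the replicate block, 26 of 29 counts were equal to those without it; pNE_T against aNE_T gave 5 called members, aNE_T against aNE 3, and 25 members were past the adjusted p alone in pNE_T against aNE_T. TPM keeps no depth, so the precision of low values is unknown; 2 libraries a group limit all tests.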
